A study of Mus musculus with 36 samples.

Results

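Heat shock proteins and chaperones were followed in the diaphragm, the main breathing muscle, of mdx and control mice. They comprised every probe set whose annotation gave 1 gene symbol beginning with Hspa, Hspb, Hspd, Hspe, Hsph, Hsp90 or Dnaj, or with Cct and a digit, together with Cryab and Serpinh1. The rule used names and no measured value, and it found 80 probe sets for 57 genes among the 12488 probe sets of the array (57 of the 8251 genes read through 1 symbol). Hybridisation signals of total RNA were compared between mdx and control diaphragm at 7, 14, 23, 28, 56 and 112 days of age, with 3 arrays in each of the 12 groups. The mdx mouse carries a point mutation in the dystrophin gene Dmd and is a model of Duchenne muscular dystrophy, and the controls are given only as control, with no strain, sex or treatment named. Whether the RNA of an array came from 1 animal or from a pool was not stated, so p-values measure the spread between arrays, which may be technical. The labels give no agent that either group received.

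Chaperones bind unfolded or damaged proteins and let them fold, pass a membrane or be sent for degradation. Hsp70 proteins bind and release clients in an ATP cycle that J proteins (Dnaj) start and Hsp110 proteins and other exchange factors complete. Hsp90 finishes the folding of myosin, kinases and receptors, small heat shock proteins hold unfolding clients and in muscle sit at the Z-disc and on desmin, and the cytosolic chaperonin CCT folds actin and tubulin inside a ring. Hspd1 and Hspe1 form the chaperonin of the mitochondrial matrix, and Serpinh1 is a chaperone of procollagen in the endoplasmic reticulum. Heat shock factor switches on many of these genes through heat shock elements, and the unfolded protein response of the endoplasmic reticulum acts through a separate element.

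Of the 57 genes, 48 had a promoter window in the RefSeq table for GRCm38.p6, which runs from 250 bases before to 50 bases after the gene's start, and both strands were searched for 2 motifs. The heat shock element was searched as GAA, 2 free bases, TTC, 2 free bases and GAA, and it was found for Hspd1, Hspe1, Hsph1 and Dnajb6, that is for 4 of 48 members (8.33%) and for 0.662% of the 27025 genes in the table. The endoplasmic reticulum stress element was searched as CCAAT, 9 free bases and CCACG, and it was found for Hspa5, Hsp90b1 and Dnajc3, which is 6.25% of the members and 0.137% of all genes. The windows below belong to members whose signals are described in this section, and capitals mark the matched motif. The window of Hspe1 (chr1:55087898-55088197, plus strand) shares 285 bases with that of Hspd1, which is read from the opposite strand, and it holds 2 overlapping matches, 1 on each strand.
Hspe1: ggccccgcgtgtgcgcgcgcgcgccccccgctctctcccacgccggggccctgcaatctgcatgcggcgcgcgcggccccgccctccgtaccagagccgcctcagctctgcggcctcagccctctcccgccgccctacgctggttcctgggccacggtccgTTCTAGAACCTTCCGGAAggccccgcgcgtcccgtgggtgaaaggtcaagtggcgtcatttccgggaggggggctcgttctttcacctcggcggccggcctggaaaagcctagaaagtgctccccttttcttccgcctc
The Hsph1 window (chr5:149636287-149636586, minus strand) and the Dnajb6 window (chr5:29735648-29735947, plus strand) hold 1 match each.
Hsph1: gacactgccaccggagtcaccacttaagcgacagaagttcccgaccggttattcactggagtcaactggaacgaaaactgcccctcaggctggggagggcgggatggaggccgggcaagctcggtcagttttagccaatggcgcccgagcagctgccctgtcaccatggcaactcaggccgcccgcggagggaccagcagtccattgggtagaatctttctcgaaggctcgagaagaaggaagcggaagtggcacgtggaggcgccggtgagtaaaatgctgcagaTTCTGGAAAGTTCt
Dnajb6: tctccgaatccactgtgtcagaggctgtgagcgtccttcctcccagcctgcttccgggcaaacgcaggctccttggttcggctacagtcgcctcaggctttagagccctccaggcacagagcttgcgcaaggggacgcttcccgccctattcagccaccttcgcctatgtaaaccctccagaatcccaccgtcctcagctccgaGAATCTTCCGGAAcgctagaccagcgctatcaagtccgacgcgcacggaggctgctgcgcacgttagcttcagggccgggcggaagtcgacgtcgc
The windows of Hspa5 (chr2:34771840-34772139, plus strand) and Dnajc3 (chr14:118937682-118937981, plus strand) hold the stress element of the endoplasmic reticulum.
Hspa5: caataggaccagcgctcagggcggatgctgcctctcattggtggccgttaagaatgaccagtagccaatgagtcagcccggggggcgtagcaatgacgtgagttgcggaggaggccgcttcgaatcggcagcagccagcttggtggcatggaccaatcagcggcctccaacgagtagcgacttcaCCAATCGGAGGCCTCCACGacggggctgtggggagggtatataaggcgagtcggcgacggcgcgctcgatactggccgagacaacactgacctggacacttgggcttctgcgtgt
Dnajc3: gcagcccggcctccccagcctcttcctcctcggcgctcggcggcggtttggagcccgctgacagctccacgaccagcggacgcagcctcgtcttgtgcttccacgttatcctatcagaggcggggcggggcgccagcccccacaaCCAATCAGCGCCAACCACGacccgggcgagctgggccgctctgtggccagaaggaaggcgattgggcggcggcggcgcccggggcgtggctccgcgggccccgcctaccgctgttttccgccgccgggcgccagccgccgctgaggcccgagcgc
A match describes the letters in these windows and is not evidence that a factor bound there. A missing match does not show that an element is absent. Only 1 strict pattern of each motif was searched in 300 bases, and some members had no window.

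The deposited signals had been brought to a common level on all 36 arrays, and the median signal of an array lay between 451 and 723. The slow and the fast muscle fibre markers summed to at least 87632 and 91684.8 on every array. The Dmd probe set read 139 to 712 on mdx arrays and 330 to 1026 on control arrays, and since mdx is a point mutation it does not check the labels. Some arrays stood apart. Albumin, a liver transcript, read above 10000 on 9 of the 36 arrays, of which 3 were mdx and 6 control. The Gapdh control signal from the 3' end divided by that from the 5' end was 0.32 to 0.83 in mdx and 0.0357 to 0.147 in controls at 7 days, and 0.532 to 0.665 in mdx and 0.518 to 0.93 in controls at 112 days. The median log2 difference of all 9291 probe sets tested was 0.15 at 56 days as deposited and 0.00 after quantile normalization, so differences at 56 days are read against that shift. In a whole piece of diaphragm, fewer cells of a type and less RNA per cell cannot be told apart.

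Of the 80 probe sets, 72 for 55 genes passed the filter on low signals (over 374.5 on at least 3 arrays) and were tested. The other 8 read at most 694.6 on any array and were not tested. They were the probe sets of Hspa2 and Hspb1, which had no other, and further probe sets of Hsp90aa1, Dnajb13, Dnajb3, Dnajc1, Dnajc3 and Cryab. Hspb1, a small heat shock protein of muscle, read 13.7 to 270.3 on this array. A probe set was called higher or lower at an adjusted p under 0.05 from limma over all probe sets tested. Calls among the members were about as frequent as on the array as a whole. At 7 days limma called 0 members (6 at an unadjusted p under 0.05) beside 0.463% of all probe sets, and at 14 days 0 (5 unadjusted) beside 0.194%. At 23 days 1 member was called lower (background 0.807% lower and 3.49% in all), and at 28 days 2 were called higher (background 2.42% higher and 2.96% in all). At 56 days 4 were called higher and 7 lower, or 15.3% of the members beside 16.7% of all probe sets, namely 9.27% higher and 7.38% lower. At 112 days 7 were called higher and 3 lower, or 13.9% beside 12.2%, namely 7.65% higher and 4.52% lower. Arrays of mdx and control that did not overlap were common. This held for 36.9% of all probe sets and 27.8% of members at 56 days, and for 23.5% and 26.4% at 112 days. At 23 days the shares were 22.9% and 25%, and at 28 days 21.5% and 27.8%. In all, 22 member probe sets were called at an age, and 47 of the 72 were called neither there, nor averaged over the ages, nor in the test of dependence on age. The count at 56 days was 4 without control replicate 1, 6 without control replicate 2, 6 without mdx replicate 1 and 7 without mdx replicate 2, and it was 7 without the 9 albumin-rich arrays. At 112 days leaving those arrays out kept only replicate 1 of the controls, so that setting gives no count comparable with the others. The count at 23 days was 0 without mdx replicate 1 or control replicate 1 or 2, and 2 without mdx replicate 3. The count at 28 days was 0 without mdx replicate 2 or control replicate 1 or 3, and 1 without any of the other 3 arrays. With array weights 1 member was called at 14 days, 11 at 23 days (6 higher and 5 lower) and 5 at 28 days. In a fit on the 6 arrays of an age alone 0 were called at 23 days, 1 at 28 days, 5 at 56 days and 1 at 112 days. A block on replicate number within an age, another alternative, ended 20 of 49 named calls. Unless this block is named, the settings listed for a lost call leave it out, and its losses are named in the closing section.

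**Figure D1:**
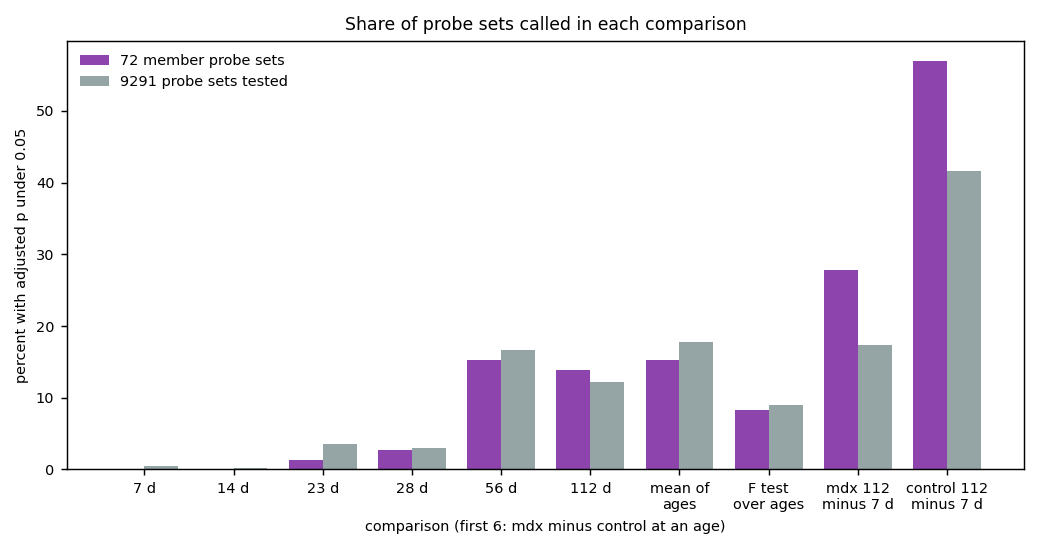
Percent of probe sets with an adjusted p under 0.05 (limma) in each comparison, for the 72 member probe sets (purple) and all 9291 probe sets tested (grey). The bars of both sets lie close together from 23 to 112 days, and the members' bar is the taller one in both comparisons of 112 with 7 days.

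**Figure D2:**
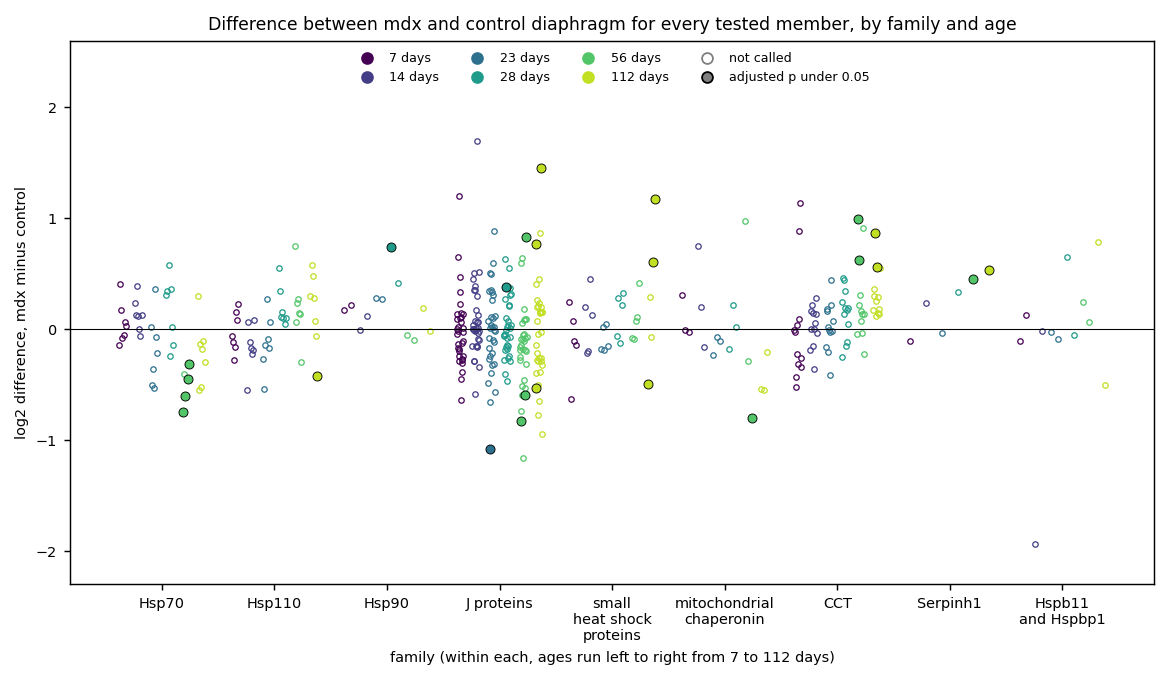
The log2 difference, mdx minus control, of each tested member probe set (points), by family and, within a family, by age. Filled points with a black rim have an adjusted p under 0.05 (limma), and these lie at 56 and 112 days except for 1 J protein at 23 days and 1 Hsp90 and 1 J protein at 28 days.

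Serpinh1, the procollagen chaperone, was higher in mdx diaphragm at both older ages. At 56 days its probe set (94817_at) read 14595, 14400.4 and 12767 in mdx diaphragm, against 11748, 8792 and 10091 in controls, and at 112 days it read 12302, 9289 and 11297 in mdx diaphragm, against 6881, 6929.5 and 8917 in controls. All mdx arrays lay above all control arrays at both ages. The difference was 1.37-fold at 56 days (log2 difference 0.45 ± 0.128 (SE), adjusted p = 0.0131) and 1.45-fold at 112 days (log2 difference 0.53 ± 0.128 (SE), adjusted p = 0.00418), and with quantile normalization the 56-day value was 0.79. At 7 days the signal was 15309.6 ± 1347 in mdx diaphragm and 16425 ± 200.2 in controls (SD, n = 3 each), and the arrays overlapped. The Serpinh1 call at 56 days was lost without mdx replicate 1 or control replicate 2 (log2 0.35 to 0.42) or in a fit on the 6 arrays of that age alone, and over 16 alternatives the adjusted p ran from 0.000648 to 0.107. The 112-day Serpinh1 call was lost in a fit on the 6 arrays of that age alone, and over 16 alternatives the adjusted p ran from 0.00123 to 0.144. Of 11 collagen genes and collagen folding factors tested, 5 were called higher and 0 lower at 56 days, and 6 higher and 0 lower at 112 days. Among them Col5a2 and Col1a2, which encode fibrillar collagen chains, had log2 differences of 2.10 (adjusted p = 4.51e-12) and 1.65 (1.68e-09) at 112 days in limma. At 112 days the summed signal of 9 fibroblast markers was 118655 to 140425 in mdx and 58598 to 72298 in controls. Of the 9 markers, 5 were called higher. The 9 include the fibrillar collagen genes Col1a1 and Col3a1, so the sum is not separate from collagen signals. The part of this sum in the Serpinh1 difference was not tested.

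Among the small heat shock proteins, Hspb8 was higher and Cryab lower in mdx diaphragm at 112 days. Hspb8, a partner of the cochaperone Bag3 in the removal of damaged Z-disc proteins, was read by 2 probe sets. At 112 days 160139_at read 22419, 21524 and 20652 in mdx diaphragm, against 13290.0, 13619 and 15504 in controls, and 162448_f_at read 1535, 1529 and 1719.9 in mdx diaphragm, against 856, 344 and 1087 in controls. On both, the mdx arrays lay above every control array. The differences were 1.52-fold for 160139_at (log2 difference 0.61 ± 0.141 (SE), adjusted p = 0.00316) and 2.26-fold for 162448_f_at (log2 difference 1.17 ± 0.274 (SE), adjusted p = 0.00342). The 160139_at call was lost in a fit on the 6 arrays of that age alone, and over 16 alternatives the adjusted p ran from 0.00033 to 0.0676. The 162448_f_at call was lost without control replicate 2 (log2 0.70), in a fit on the 6 arrays of that age alone or without the 9 albumin-rich arrays, and over 16 alternatives the adjusted p ran from 0.000474 to 0.136. At 56 days 160139_at had a log2 difference of 0.11 (adjusted p = 0.611) as deposited and 0.58 (adjusted p = 0.00081) after quantile normalization. Bag3 itself had a lower signal in mdx at 56 days (log2 -0.63, limma, adjusted p = 0.0251).

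Cryab (alpha B-crystallin), which binds desmin filaments, read 12193, 10195 and 7665 in mdx diaphragm, against 11058, 16737 and 14382 in controls at 112 days on 162308_f_at (log2 difference -0.49 ± 0.159 (SE), adjusted p = 0.0379). The arrays of both groups overlapped. The Cryab call was lost without mdx replicate 2 or 3 or control replicate 2 or 3 (log2 -0.52 to -0.31), with quantile normalization, with array weights, in a fit on the 6 arrays of that age alone or without the 9 albumin-rich arrays (log2 -0.19), and over 16 alternatives the adjusted p ran from 0.00928 to 0.724. Hspb2, a small heat shock protein of striated muscle, showed no call in any comparison of mdx with control. Its probe set 103215_g_at averaged 16890.1 ± 814 in mdx diaphragm and 17894 ± 2854 in controls (SD, n = 3 each) at 112 days (log2 difference -0.07, adjusted p = 0.802), and 103214_at had a log2 difference of 0.29 (0.611). With quantile normalization 103215_g_at was called at 56 days (log2 0.51).

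**Figure D3:**
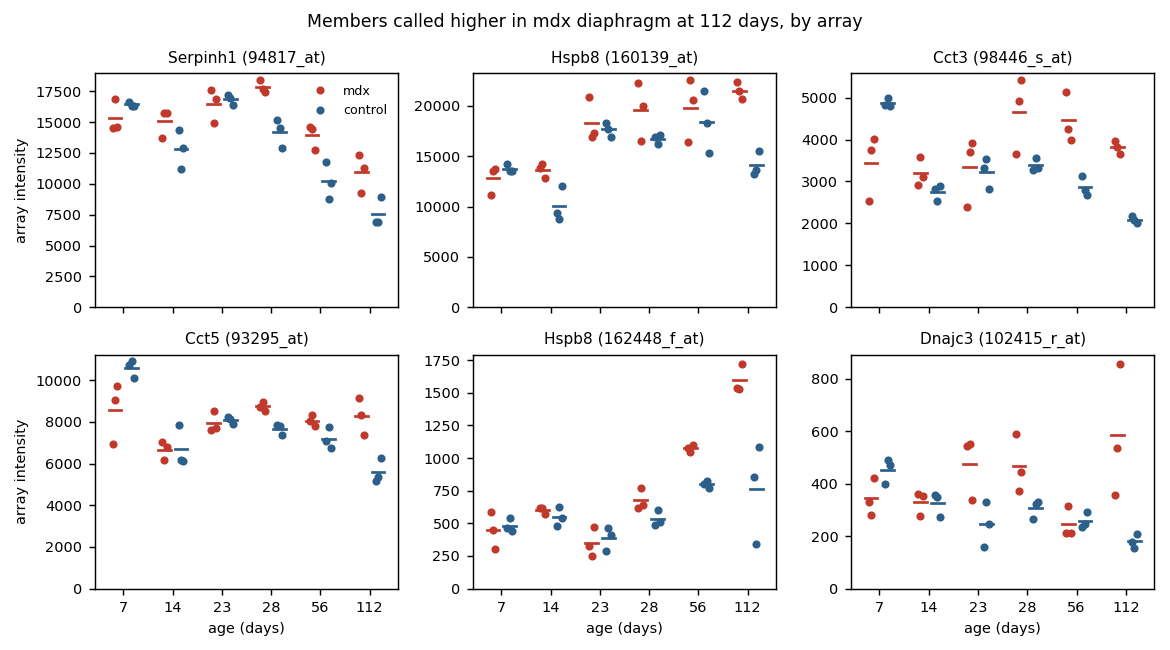
Array intensity of 6 probe sets called higher in mdx diaphragm at 112 days, by age in days, with 1 point per array (mdx red, control blue) and a line at each group mean. At 112 days every mdx point lies above every control point in all 6 panels, whereas at 7 days the mdx points of Cct3 and Cct5 lie below the controls. The panels were chosen among called probe sets, and the groups did not overlap on 23.5% of all probe sets tested at 112 days.

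The cytosolic chaperonin CCT was read by 12 probe sets for 8 of its subunit genes. At 112 days the log2 difference was above 0 on 12 of them as deposited and on 11 after quantile normalization. Of all 9291 probe sets tested, 4804 were above 0 as deposited. The CCT median was 0.27 beside 0.02 for all probe sets tested, and 2 CCT probe sets were called. Cct3 (98446_s_at) read 3971, 3817 and 3662 in mdx diaphragm, against 2166, 2072 and 2009 in controls at 112 days, and Cct5 (93295_at) read 9149, 8329.7 and 7354 in mdx diaphragm, against 5141, 5359 and 6281 in controls. The mdx arrays lay above the controls for both subunits. The differences were 1.82-fold for Cct3 (log2 difference 0.86 ± 0.162 (SE), adjusted p = 0.000364) and 1.48-fold for Cct5 (log2 difference 0.56 ± 0.117 (SE), adjusted p = 0.00107). The Cct3 call at 112 days was lost without the 9 albumin-rich arrays, and over 16 alternatives the adjusted p ran from 0.000125 to 0.0548. The Cct5 call was lost in a fit on the 6 arrays of that age alone, and over 16 alternatives the adjusted p ran from 0.000157 to 0.0875. The other Cct5 probe set, 161514_at, had a log2 difference of 0.12 (adjusted p = 0.839). At 7 days Cct3 read 2545, 3754 and 4018 in mdx diaphragm, against 4814, 4984 and 4791 in controls, with all mdx arrays below the controls (log2 -0.52, adjusted p = 0.2).

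At 56 days 2 of the 3 Cct3 probe sets were called higher. On 98446_s_at the signals were 5123, 4259 and 3989.6 in mdx diaphragm, against 3121, 2802 and 2684 in controls, with no overlap (log2 difference 0.62 ± 0.162 (SE), adjusted p = 0.00747). On 161238_f_at they were 1913, 3888 and 3152 in mdx diaphragm, against 1354, 883 and 2418 in controls, and the arrays overlapped (log2 difference 0.99 ± 0.345 (SE), adjusted p = 0.0466). The 98446_s_at call at 56 days was lost without mdx replicate 1 (log2 0.52), and over 16 alternatives the adjusted p ran from 0.00519 to 0.0586. The 161238_f_at call was lost without mdx replicate 2 or 3 or control replicate 1 or 2 (log2 0.65 to 0.95), without the filter, with quantile normalization, with the Gapdh ratio as a covariate, in a fit on the 6 arrays of that age alone or without the 9 albumin-rich arrays, and over 16 alternatives the adjusted p ran from 0.00549 to 0.271. The remaining one, 98153_at, had log2 differences of 0.22 at 56 days (adjusted p = 0.338) and 0.30 at 112 days (0.212). Of 9 prefoldin, tubulin-folding and other CCT partner genes tested, 0 were called at 56 days and 2 were called higher at 112 days, namely Pfdn2, a prefoldin subunit (log2 0.51, adjusted p = 0.0129), and Tbcb, a tubulin-folding cofactor (1.37, 0.0125), in limma. Markers of regenerating fibres were called higher for 9 of 9 genes at both ages, with a summed signal of 43182 to 52599.5 in mdx and 5673 to 7318 in controls at 56 days, and of 44046 to 58466 in mdx and 5664 to 6848 in controls at 112 days. Macrophage markers were called higher for 10 of 12 genes at 56 days and 9 of 12 at 112 days, with sums of 75167 to 81544 in mdx and 19520.5 to 20563 in controls at 112 days. The part of either cell type in the CCT differences was not tested.

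At 56 days 4 of the 7 Hsp70 probe sets tested, those of Hspa1a, Hspa1l, Hspa8 and Hspa9, were called lower in mdx diaphragm, beside 7.38% of all probe sets called lower. As deposited, 7 of 7 probe sets had a log2 difference below 0, beside 3567 of all 9291 probe sets. The Hsp70 median was -0.45 beside 0.15 for all probe sets. After quantile normalization 6 of 7 were below 0 and 2 were called. Hspa1a, the stress-induced Hsp70, read 2323, 1521 and 2272 in mdx diaphragm, against 3570.4, 2971 and 3639.8 in controls. Hspa1l, a related Hsp70 best known from testis, read 1354, 1355 and 1504 in mdx diaphragm, against 1930.2, 2301 and 2217 in controls. In both cases the mdx arrays lay below the controls. Hspa1a was at 0.596 of the control level (log2 difference -0.75 ± 0.236 (SE), adjusted p = 0.0273), and Hspa1l was at 0.659 of it (log2 difference -0.60 ± 0.189 (SE), adjusted p = 0.0267). The Hspa1a call was lost without mdx replicate 2 or control replicate 1 or 3 (log2 -0.71 to -0.55) or without the 9 albumin-rich arrays, and over 16 alternatives the adjusted p ran from 0.0186 to 0.154. The Hspa1l call was lost without mdx replicate 1 or 2 or control replicate 2 or 3 (log2 -0.58 to -0.55), and over 16 alternatives the adjusted p ran from 0.00672 to 0.0981. Hspa1b is a nearly identical copy of Hspa1a, so their probe sets may read both transcripts, and it had a log2 difference of -0.40 (adjusted p = 0.438).

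The constitutive Hsp70, Hspa8, read 13319.7, 16263 and 17083 in mdx diaphragm, against 21290.2, 19496 and 22557 in controls at 56 days, and all mdx arrays lay below the controls (log2 difference -0.45 ± 0.129 (SE), adjusted p = 0.0161). Hspa9, the Hsp70 of mitochondria that pulls in imported proteins, read 12619.6, 10011 and 11542 in mdx diaphragm, against 13745, 15849 and 12981 in controls, again without overlap (log2 difference -0.32 ± 0.111 (SE), adjusted p = 0.0469). The Hspa8 call was lost without mdx replicate 1 or control replicate 1 or 3 (log2 -0.44 to -0.34), with quantile normalization (log2 -0.01) or in a fit on the 6 arrays of that age alone, and over 16 alternatives the adjusted p ran from 0.0117 to 0.973. The Hspa9 call was lost without mdx replicate 2 or 3 or control replicate 1 or 2 (log2 -0.34 to -0.23), without the filter, with quantile normalization (log2 0.02), in a fit on the 6 arrays of that age alone or without the 9 albumin-rich arrays, and over 16 alternatives the adjusted p ran from 0.0181 to 0.938. Hspa5, the Hsp70 of the endoplasmic reticulum, had log2 differences of 0.36 at 23 days, 0.36 at 28 days and -0.44 at 56 days, with adjusted p of 0.279, 0.313 and 0.0586. Hspa14 was at -0.75 at 56 days (0.185). At 112 days 0 Hsp70 probe sets were called in limma, with 3 at an unadjusted p under 0.05, and the lowest adjusted p was 0.0662, for Hspa1l. The muscle fibre markers moved at 56 days as well, with 7 of 8 slow fibre genes and 2 of 9 fast fibre genes called lower. The summed slow fibre signal was 87632 to 202131 in mdx and 203917 to 264048 in controls, and its part in the Hsp70 differences was not tested.

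The mitochondrial chaperonin gave the call with the lowest adjusted p among the members at 56 days. Hspe1, the lid of the chaperonin, read 6849.7, 7840.1 and 8722 in mdx diaphragm, against 13752, 14106 and 12909 in controls. The mdx arrays lay below all controls, at 0.573 of the control level (log2 difference -0.80 ± 0.15 (SE), adjusted p = 0.000329). The Hspe1 call was kept in each of 16 alternatives, whose adjusted p ran from 0.000109 to 0.0159. At 28 days Hspe1 had averaged 9549 ± 60.9 in mdx diaphragm and 9424 ± 357 in controls (SD, n = 3 each), and at 112 days it averaged 9339 ± 1310.4 in mdx diaphragm and 10757 ± 1616 in controls (SD, n = 3 each) (log2 difference -0.20, adjusted p = 0.429). Hspd1, the ring subunit, whose promoter window overlaps that of Hspe1, was not called between mdx and control. On 93277_at it read 16917, 13752 and 13959 in mdx diaphragm, against 21329, 17317 and 16069.6 in controls at 56 days, and the arrays overlapped (log2 -0.29, adjusted p = 0.378). The other probe set, 161140_r_at, gave 0.98 at 56 days (0.122). With quantile normalization these differences were 0.22 (adjusted p = 0.691) and 0.67 (0.301), so the sign on 93277_at turned with the scaling. Of 10 other mitochondrial folding factors and proteases tested, 2 were called lower at 56 days, the matrix proteases Clpp (log2 -0.73, adjusted p = 0.000802) and Lonp1 (-0.81, 0.0105, limma), and 0 at 112 days.

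**Figure D4:**
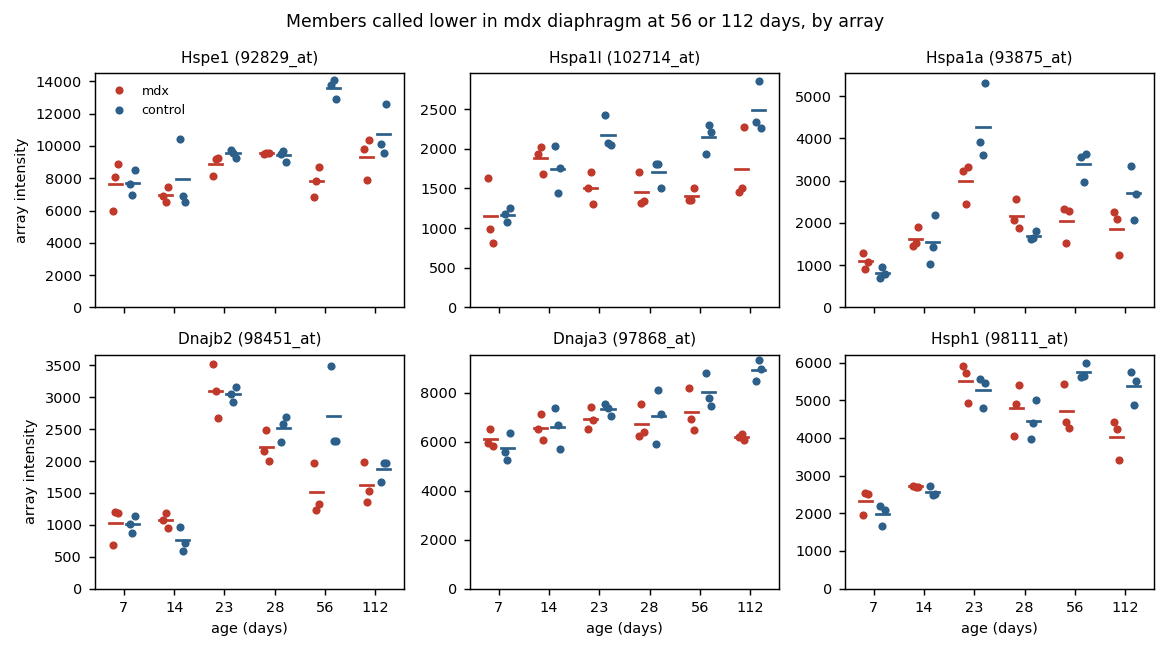
Array intensity of 6 probe sets called lower in mdx diaphragm at 56 or 112 days, by age in days, with 1 point per array (mdx red, control blue) and a line at each group mean. For Hspe1, Hspa1l, Hspa1a and Dnajb2 the mdx points at 56 days lie below all control points, and for Dnaja3 and Hsph1 the same holds at 112 days. The groups did not overlap on 36.9% of all probe sets tested at 56 days and on 23.5% at 112 days.

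Hsp90 and Hsp110 members gave 1 call each. Hsp90aa1, the inducible cytosolic Hsp90 that helps myosin to fold, read 9131, 11455 and 11036 in mdx diaphragm, against 6102, 6744 and 5977 in controls at 28 days on 95282_at. The mdx arrays lay above the controls (1.67-fold, log2 difference 0.74 ± 0.2 (SE), adjusted p = 0.0327). The Hsp90aa1 call was lost without mdx replicate 2 or 3 or control replicate 1, 2 or 3 (log2 0.68 to 0.79). It was also lost with the replicate block, and over 16 alternatives the adjusted p ran from 0.00166 to 0.157. Its log2 difference was -0.05 at 56 days and 0.19 at 112 days, with adjusted p of 0.887 and 0.606. Hsp90b1, the Hsp90 of the endoplasmic reticulum, was not called at any age and averaged 9177 ± 1879 in mdx diaphragm and 6795 ± 187 in controls (SD, n = 3 each) at 28 days (log2 difference 0.41, adjusted p = 0.185). Hsph1, an Hsp110 protein with a heat shock element in its window, read 4422, 4241 and 3424 in mdx diaphragm, against 5765, 4887 and 5512 in controls at 112 days. These mdx arrays lay below the controls (log2 difference -0.42 ± 0.134 (SE), adjusted p = 0.0355). The Hsph1 call was lost without mdx replicate 2 or 3 or control replicate 1 or 3 (log2 -0.46 to -0.31), with array weights, in a fit on the 6 arrays of that age alone or without the 9 albumin-rich arrays, and over 16 alternatives the adjusted p ran from 0.0232 to 0.21. Hspa4, another Hsp110 protein, was read by 5 probe sets with 0 calls between mdx and control, and its log2 differences at 112 days ran from 0.08 to 0.58. One of them, 96594_at, averaged 6308 ± 594 in mdx diaphragm and 5976 ± 408 in controls (SD, n = 3 each) at that age. Hspa4l, the third gene, had a difference of -0.06 (0.907).

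Of the 33 J protein probe sets tested, 3 were called at 56 days and 3 at 112 days, which was 9.09% at each age beside the 16.7% and 12.2% given above. At 56 days 1 was higher and 2 lower as deposited, against 0 higher and 4 lower after quantile normalization. Of the 33 log2 differences, 25 and 28 lay below 0, beside 3567 of all 9291 probe sets as deposited. Dnajb2, a J protein that hands ubiquitinated clients to the proteasome, read 1976, 1238 and 1328 in mdx diaphragm, against 3492, 2318 and 2321 in controls at 56 days. Its mdx arrays lay below the controls (log2 difference -0.83 ± 0.205 (SE), adjusted p = 0.0052). The Dnajb2 call was lost without control replicate 1 (log2 -0.64), and over 16 alternatives the adjusted p ran from 0.000461 to 0.0599. Dnajc21, a factor of ribosome assembly, was also lower at 56 days, with means of 1001 ± 61.1 in mdx diaphragm and 1527 ± 187 in controls (SD, n = 3 each) and no overlap (log2 difference -0.59 ± 0.192 (SE), adjusted p = 0.0328). Dnajc5, the cysteine string protein of secretory vesicles, was higher, at 2887, 1652 and 1702 in mdx diaphragm, against 924, 1087 and 1382 in controls, again without overlap (log2 difference 0.83 ± 0.25 (SE), adjusted p = 0.0202). The Dnajc21 call was lost without mdx replicate 1, 2 or 3 or control replicate 1 or 3 (log2 -0.63 to -0.52), in a fit on the 6 arrays of that age alone or without the 9 albumin-rich arrays, and over 16 alternatives the adjusted p ran from 0.0106 to 0.102. The Dnajc5 call was lost without mdx replicate 1 or control replicate 1 or 2 (log2 0.57 to 0.81), with quantile normalization, in a fit on the 6 arrays of that age alone or without the 9 albumin-rich arrays, and over 16 alternatives the adjusted p ran from 0.0149 to 0.167.

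At 112 days Dnaja3, a J protein of mitochondria, read 6191, 6288 and 6059 in mdx diaphragm, against 8468, 9347 and 8949.7 in controls. All mdx arrays lay below the controls (log2 difference -0.53 ± 0.12 (SE), adjusted p = 0.0028). Dnajb1, the J partner of stress-induced Hsp70, read 828, 949 and 1049.9 in mdx diaphragm, against 763, 402 and 501 in controls and was higher without overlap (log2 difference 0.77 ± 0.24 (SE), adjusted p = 0.0306). The Dnaja3 call was lost in a fit on the 6 arrays of that age alone or without the 9 albumin-rich arrays, and over 16 alternatives the adjusted p ran from 0.00193 to 0.142. The Dnajb1 call was lost without mdx replicate 2 or 3 or control replicate 2 or 3 (log2 0.58 to 0.76), with array weights, in a fit on the 6 arrays of that age alone or without the 9 albumin-rich arrays (log2 0.28), and over 16 alternatives the adjusted p ran from 0.00797 to 0.729. Dnajc3, a J protein of the endoplasmic reticulum that restrains the kinase Perk, read 357, 538 and 858 in mdx diaphragm, against 179, 156 and 209 in controls on 102415_r_at. The groups did not overlap, and the difference was 2.74-fold (log2 difference 1.46 ± 0.288 (SE), adjusted p = 0.000651). The Dnajc3 call at 112 days was lost in a fit on the 6 arrays of that age alone or without the 9 albumin-rich arrays, and over 15 alternatives the adjusted p ran from 0.000182 to 0.112. The other Dnajc3 probe sets did not follow it, since 102414_i_at was at -0.29 (adjusted p = 0.573) and 94343_at at -0.26 (0.535).

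Earlier calls among the J proteins were few. Dnajb4 was lower at 23 days, with signals of 1016, 2459 and 3416 in mdx diaphragm, against 4851, 4498 and 3837 in controls. The arrays did not overlap, but mdx replicate 1 lay far below the other mdx arrays (log2 difference -1.08 ± 0.284 (SE), adjusted p = 0.0254). The Dnajb4 call was lost without mdx replicate 1 or control replicate 1 or 2 (log2 -1.06 to -0.59) or in a fit on the 6 arrays of that age alone, and over 16 alternatives the adjusted p ran from 0.00139 to 0.426. Dnajb6, a J protein mutated in a limb-girdle muscular dystrophy, was higher at 28 days on 96120_at. It is 1 of the 4 members whose window matched the heat shock element as searched. The signals were 3693, 3725 and 3196 in mdx diaphragm, against 2433, 2907 and 2783 in controls. These arrays did not overlap (log2 difference 0.38 ± 0.0971 (SE), adjusted p = 0.0208). The Dnajb6 call was lost without mdx replicate 1 or 2 or control replicate 1 or 3 (log2 0.31 to 0.40), in a fit on the 6 arrays of that age alone or without the 9 albumin-rich arrays, and over 16 alternatives the adjusted p ran from 0.00242 to 0.179. On 104625_at its difference at 28 days was -0.01 (adjusted p = 0.999). Hspb11, an intraflagellar transport protein, and Hspbp1, an exchange factor of Hsp70, entered through the letters of their names, and limma called neither between mdx and control. At 112 days Hspbp1 averaged 1802 ± 349.8 in mdx diaphragm and 2577 ± 536 in controls (SD, n = 3 each) (log2 difference -0.51, adjusted p = 0.0994).

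Averaged over the 6 ages, 6 members were called higher and 5 lower, beside 17.8% of all probe sets (10.4% higher and 7.41% lower). The higher ones were Cct6b, a CCT subunit best known from testis (log2 0.47, adjusted p = 0.0337), Dnajc3 (0.41, 0.0134), Cct3 (0.27, 0.00314), Serpinh1 (0.24, 0.00131), Dnajb11, an Hspa5 partner (0.23, 0.0368), and Hspb8 on 160139_at (0.22, 0.006). The lower ones were Hspa1l (-0.31, adjusted p = 0.00415), Dnajc21 (-0.25, 0.0221), Hspe1 (-0.21, 0.013), Dnaja2, a cytosolic Hsp70 partner (-0.20, 0.0473), and Hspa9 (-0.14, 0.0346). These averages are small, between 0.807 for Hspa1l and 1.38 for Cct6b as a fold. The probe sets of Cct6b (92419_at) and Dnajc3 (102415_r_at) were dim, with mean signals of 346.6 and 352 over all arrays. They read above the filter level on 15 and 10 of the 36 arrays, so the size of their log2 averages is uncertain. Of the 3 Dnajc3 probe sets tested only 1 was called, and their log2 averages ran from -0.10 to 0.41. The Cct6b call was lost without 1 array in 12 of 36 cases (log2 0.40 to 0.45), with quantile normalization, with array weights, without the 9 albumin-rich arrays, without 14 and 23 days or without 7 days. The Dnaja2 call was lost without 1 array in 27 of 36 cases (log2 -0.21 to -0.17), without the filter or without 14 and 23 days. The Dnajb11 call was lost without 1 array in 18 of 36 cases (log2 0.19 to 0.22), with quantile normalization, with the Gapdh ratio as a covariate, without the 9 albumin-rich arrays or without 14 and 23 days. The Hspa9 call was lost without 1 array in 11 of 36 cases (log2 -0.13 to -0.12), with quantile normalization (log2 -0.05), with array weights, with the Gapdh ratio as a covariate or without the 9 albumin-rich arrays. The Dnajc3 call was lost with quantile normalization, without the 9 albumin-rich arrays or without 14 and 23 days. The Dnajc21 call was lost with the Gapdh ratio as a covariate or without the 9 albumin-rich arrays. The Hspb8 call was lost without 14 and 23 days. The number of calls was 7 without control replicate 2 of 23 days and 6 without the 9 albumin-rich arrays. With the replicate block 6 members were called, and the calls of Cct6b, Dnajb11, Dnajc21, Dnaja2 and Hspa9 were lost. The test of whether the mdx minus control difference depended on age called 6 members (Cct3, Cct5, Dnajc3, Dnajb6, Hspa1a and Dnajb2), or 8.33% of them beside 8.93% of all probe sets. That count was 3 without control replicate 1 or 3 of 7 days, control replicate 3 of 28 days or mdx replicate 1 of 28 days, and 12 without control replicate 3 of 112 days.

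Between 7 and 112 days chaperone signals moved in both genotypes. In controls 23 member probe sets were called higher and 18 lower at 112 than at 7 days, or 56.9% of the members beside 41.7% of all probe sets (21.4% higher and 20.3% lower). In mdx diaphragm 13 were called higher and 7 lower, or 27.8% beside 17.4% (8.18% higher and 9.18% lower). The members' shares were not tested against those of the other probe sets. Both comparisons called 17 probe sets, all 17 in the same direction, which is 85% of the mdx calls and 41.5% of the control calls. In controls the largest called rises were those of Hspa1a, at 3343, 2071 and 2689.7 at 112 days against 704, 944 and 791 at 7 days (log2 1.68, adjusted p = 1.7e-06), Dnajb9, a J protein of the endoplasmic reticulum, on 96680_at (1.66, 2.21e-05), Hspd1 on 161140_r_at (1.63, 0.0039), Dnajb8 (1.56, 0.0291) and Hspa1b (1.51, 0.000821). Hspa1a arrays of 112 days all lay above those of 7 days. The largest called falls were those of Hspb11 (-2.49, adjusted p = 0.000229), Dnajc17 (-1.62, 0.019), Hspa14 (-1.58, 0.00194), Hspb2 on 103214_at (-1.56, 0.000205) and Hspa4 on 100353_g_at (-1.39, 8.69e-05). The Gapdh ratio differed between control arrays of these ages, and when it entered the fit as a covariate 28 members were called. Dnajb8 averaged 339.6 ± 272 at 112 days and 91.1 ± 74.6 at 7 days in controls, and Hspd1 on 161140_r_at 397 ± 218 at 112 days and 96.8 ± 13.5 at 7 days (SD, n = 3 each). Each of the 2 probe sets read above the filter level of 374.5 on 3 of the 36 arrays, so the size of these rises is uncertain. On the brighter Hspd1 probe set, 93277_at, the log2 difference was 0.11 (adjusted p = 0.692). The control means of Hspb11, Dnajc17 and Hspa14 at 112 days were 191, 328 and 217, also under that level. On 103215_g_at Hspb2 had a log2 difference of 0.08 (adjusted p = 0.655), and Dnajb9 on 96679_at one of 0.85 (0.0391). The Hspd1 rise was lost with the Gapdh ratio as a covariate (log2 1.01) or without the 9 albumin-rich arrays. The Dnajb8 rise was lost without 7-day control replicate 1 or 3 or 112-day control replicate 2 (log2 0.99 to 1.65), with quantile normalization, with the Gapdh ratio as a covariate or without the 9 albumin-rich arrays (log2 0.73). The Dnajc17 fall was lost without 7-day control replicate 2 or 112-day control replicate 1 or 2 (log2 -1.46 to -1.16) or with the Gapdh ratio as a covariate (log2 -0.73). The Hspa14 fall was lost with the Gapdh ratio as a covariate (log2 -0.70). Probe sets of a gene did not always move together, since Hspa4 fell on 100353_g_at, 161745_f_at and 92571_at and rose on 96594_at (log2 0.60, adjusted p = 0.000337).

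In mdx diaphragm the largest called rises with age were those of Hspb8 on 162448_f_at, at 1535, 1529 and 1719.9 at 112 days against 589, 446 and 302 at 7 days (log2 1.81, adjusted p = 1.24e-05), Hspa1b (1.21, 0.0128), Hspa4l (1.12, 0.000405), Dnajb9 (0.83, 0.0368) and Hsph1 (0.79, 6.88e-05). The Hspb8 arrays of the 2 ages did not overlap. The largest called falls were those of Hspb11 (-1.60, adjusted p = 0.025), Hspa14 (-1.14, 0.0415), Dnajc8, a factor of the spliceosome, on 95700_r_at (-1.12, 0.0282), Dnajc5 (-0.98, 0.00553) and Dnajc3 on 102414_i_at (-0.87, 0.0313). The Hspa1b rise was lost without 112-day mdx replicate 1 (log2 1.05). The Dnajb9 rise was lost without 7-day mdx replicate 3 or 112-day mdx replicate 1 (log2 0.35 to 0.64). The Hspb11 fall was lost without 7-day mdx replicate 1 or 3 or 112-day mdx replicate 1 or 3 (log2 -1.62 to -1.37) or with array weights. The Hspa14 fall in mdx was lost without 7-day mdx replicate 2 or 3 or 112-day mdx replicate 2 or 3 (log2 -1.27 to -0.86), with a pseudocount of 10 or without the filter. The Dnajc8 fall was lost without 7-day mdx replicate 1 or 112-day mdx replicate 2 or 3 (log2 -0.91 to -0.72), with array weights or without the 9 albumin-rich arrays (log2 -0.51). The other Dnajc8 probe set, 95699_f_at, was not called (log2 difference 0.27, adjusted p = 0.145), and its 112-day arrays all lay above those of 7 days. Dnajb9 on 96679_at was not called in mdx either (0.27, 0.637). The Dnajc5 fall was lost without 112-day mdx replicate 3 (log2 -0.72). The Dnajc3 fall was lost without 7-day mdx replicate 2 or 3 or 112-day mdx replicate 3 (log2 -0.85 to -0.32) or with array weights. The count was 13 without mdx replicate 2 or 3 of 7 days or mdx replicate 3 of 112 days.

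**Figure D5:**
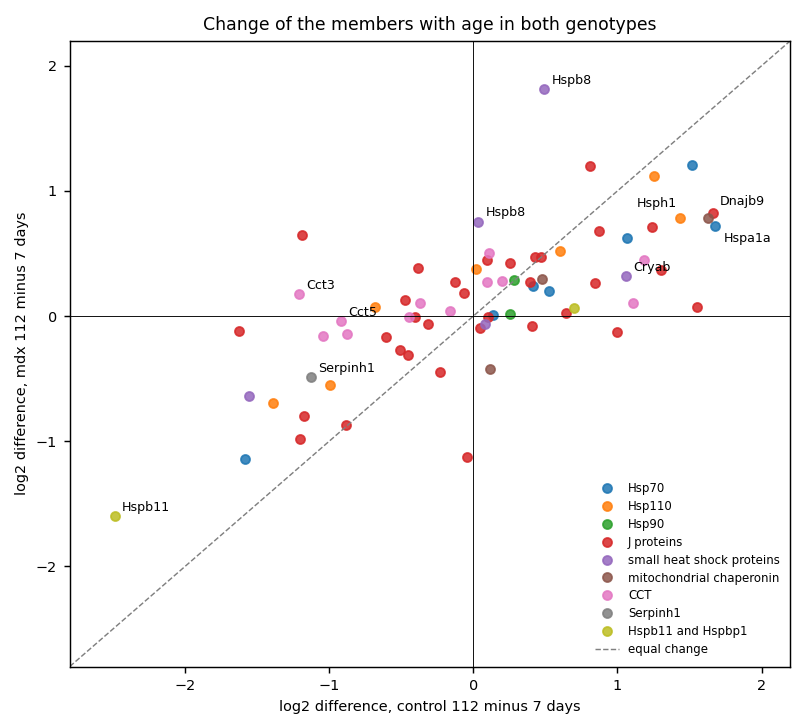
The log2 difference between 112 and 7 days in mdx (vertical axis) against that in controls (horizontal axis) for each tested member probe set, coloured by family, with a dashed line of equal change. Both Hspb8 probe sets and the labelled Cct3, Cct5 and Serpinh1 points lie above the line, and Hsph1, Cryab and Hspa1a lie below it.

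Whether the change with age differed between the genotypes was tested as the mdx minus control difference at 112 days less that at 7 days, a comparison chosen after seeing the data. It called 8 members higher and 3 lower, beside 9.85% of all probe sets (6.25% higher and 3.59% lower). The higher ones included Dnajc3 on 102415_r_at (log2 1.84 ± 0.408 SE, adjusted p = 0.00351), Cct3 on 98446_s_at (1.39, 0.000137) and 98153_at (0.73, 0.0269), and Cct5 (0.88, 0.00068). They also included Hspb8 on both probe sets (1.32, 0.027, and 0.72, 0.0189), Serpinh1 (0.64, 0.0214) and Dnajb6 (0.44, 0.0369). The Hspb8 result of 0.72 and those of Serpinh1 and Dnajb6 were not followed by name under the alternatives in this comparison. The absence of lost settings for them below does not mean that their calls held. The lower ones were Cryab (-0.74, adjusted p = 0.0325), Hsph1 (-0.65, 0.026) and Dnaja3 (-0.62, 0.0182). For Cct3 and Cct5 limma called a fall with age in controls and none in mdx diaphragm. Cct3 on 98446_s_at averaged 3817 ± 155 at 112 days and 3439 ± 785 at 7 days in mdx, and 2082 ± 78.9 and 4863 ± 105 in controls (SD, n = 3 each). Markers of regenerating fibres fell in controls for 9 of 9 genes, and in mdx diaphragm 3 rose and 1 fell, and their part was not tested. The Serpinh1 log2 change with age was -0.49 in mdx (adjusted p = 0.00677) and -1.12 in controls (4.35e-08). The Cryab difference was lost without 7-day mdx replicate 1 or 2, 112-day mdx replicate 3, 7-day control replicate 1 or 2 or 112-day control replicate 2 (log2 -0.76 to -0.56), with array weights or without the 9 albumin-rich arrays. The Hsph1 difference was lost without 7-day mdx replicate 2 or 3, 112-day mdx replicate 3, 7-day control replicate 2 or 112-day control replicate 1 (log2 -0.60 to -0.53) or without the 9 albumin-rich arrays. The Cct3 difference on 98153_at was lost without 7-day mdx replicate 1, 112-day mdx replicate 2 or 3, 7-day control replicate 1 or 112-day control replicate 2 (log2 0.51 to 0.70), with the Gapdh ratio as a covariate or without the 9 albumin-rich arrays (log2 0.46). The Hspb8 difference on 162448_f_at was lost without 7-day mdx replicate 3, 112-day mdx replicate 3, 7-day control replicate 2 or 112-day control replicate 2 (log2 0.85 to 1.26), with the Gapdh ratio as a covariate or without the 9 albumin-rich arrays. The Dnaja3 difference was lost without 7-day control replicate 2 (log2 -0.56) or without the 9 albumin-rich arrays. The Cct3 difference on 98446_s_at was lost without the 9 albumin-rich arrays. The Dnajc3 difference was lost without the 9 albumin-rich arrays. Only 2 members were called without the 9 albumin-rich arrays, and the count was 7 without control replicate 2 of 7 days, 6 without mdx replicate 1 of 7 days and 7 without control replicate 2 of 112 days. Both 7-day groups differed in the Gapdh ratio, and with it as a covariate 8 members were called.

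Of the cochaperones and heat shock factors outside the name rule, 23 were tested. At 56 days 3 were called lower and 0 higher, beside 7.38% and 9.27% of all probe sets. The 3 were the Hsp90 partner Fkbp4 (log2 -0.65, limma, adjusted p = 0.000583), Bag3 (-0.63, 0.0251) and the import factor Tomm34 (-0.95, 0.045). At 112 days 1 was called, Fkbp4 (-0.63, 0.000762, limma), beside 4.52% of all probe sets called lower. Averaged over the ages 4 were lower, namely Hsbp1, Fkbp4, Smyd1 and Stip1, beside 7.41%. The share of a list was not tested against that of all probe sets. Of 23 other folding and stress genes of the endoplasmic reticulum, 2 were called higher and 3 lower at 56 days. The collagen-folding cyclophilin Ppic (0.85, adjusted p = 0.000149) and the glucosidase subunit Ganab (0.51, 0.0263) rose, and the stress-response genes Atf4 (-0.66, 0.00723), Ddit3 (-1.76, 0.0102) and Herpud1 (-0.48, 0.0185) fell. At 112 days 2 were higher, Ppic (0.80, 0.000294) and Ppib (1.01, 0.000396), and Txndc5 was lower (-0.76, 0.0118), all in limma. Ppib is also counted among the collagen folding factors. Genes of these lists named for a call at 56 or 112 days were chosen after their values were seen. All list and marker counts in this section stand beside 9.27% of all probe sets higher and 7.38% lower at 56 days. At 112 days these shares were 7.65% and 4.52%. Of the markers of other cells, 2 of 7 endothelial, 2 of 5 adipocyte, 3 of 6 mesothelial and 1 of 9 liver genes were called lower at 56 days, and 0 of these were called higher.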

How the data were processed

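Gene expression in diaphragm was measured on 36 Affymetrix mouse arrays, 3 in each of 12 groups of age and genotype, and each sample was put in its group by its title. The deposited table holds 1 intensity per probe set and array on a linear scale, made by the authors with a standard Affymetrix protocol, per the labels; the software and any scaling step are not stated in the labels. The values ran from 0.3 to 92203.8, and the trimmed mean (percentiles 2 to 98) of every array lay between 1499.2 and 1499.7, so the values were used as deposited. The number of arrays limits the precision, since the table gives no spread within an array.

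Members and gene lists were chosen with earlier results of these data known. Probe sets were named through the platform annotation; 10833 of 12488 had 1 symbol, and symbols came from an annotation that can be old. Probe sets whose identifier ends in a letter code before _at can match more than 1 transcript. Intensities plus a pseudocount of 32 were taken to log2 and fitted with limma 3.58.1 in R 4.3.3, with 12 group means, moderated variances with a trend on mean signal and 24 residual degrees of freedom. The fit covered 9291 probe sets that exceeded 374.5 (percentile 40 of all values) on at least 3 arrays; p-values were adjusted over all of them by the Benjamini-Hochberg method. Contrasts were mdx minus control at each age, over the mean of the ages and as an F test of dependence on age, and 112 minus 7 days in each genotype. On data simulated for 28 days with 9291 probe sets, the fit recovered 6%, 50%, 86% and 100% of changes of 0.5, 1, 2 and 3 on the log2 scale, with 3.97% of 126 calls false. A log2 difference on this scale understates the change of dim probe sets.

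Values are given for each member called in mdx minus control or in the F test, 1 probe set chosen by mean signal in each family, other probe sets of the same genes, and the 5 largest called rises and falls with age. For lists of other genes, each gene was read by its probe set with the highest mean signal. Alternatives were pseudocounts of 10 and 100, no filter and percentile 60, quantile normalization, array weights, a replicate-number block, the 6 arrays of an age alone, each array left out in turn, the 9 albumin-rich arrays left out, and the Gapdh ratio as a covariate. Leaving out 14 and 23 days, or 7 days, from the mean was added after seeing the data. With 1 array left out of a group, the fit takes its spread from all groups.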

Additional observations from a re-analysis of the deposited data

Results flagged for a closer look

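Of the members, 6 probe sets showed a difference between mdx and control that itself differed between ages by limma's F test. The adjusted p was 0.00128 for Cct3 on 98446_s_at, whose log2 differences were -0.52, 0.21, 0.02, 0.44, 0.62 and 0.86 at 7, 14, 23, 28, 56 and 112 days. That Cct3 result was lost without the 9 albumin-rich arrays. The adjusted p was 0.0109 for Cct5 on 93295_at, whose log2 differences were -0.32, -0.00, -0.03, 0.19, 0.16 and 0.56 at 7, 14, 23, 28, 56 and 112 days. That Cct5 result was kept with each array left out and without the 9 albumin-rich arrays, but it was lost with the replicate block. The adjusted p was 0.017 for Dnajc3 on 102415_r_at, whose log2 differences were -0.38, 0.01, 0.89, 0.55, -0.08 and 1.46 at 7, 14, 23, 28, 56 and 112 days. That Dnajc3 result was lost without the 9 albumin-rich arrays. The other Dnajc3 probe sets were not called in this test. The adjusted p was 0.0371 for Dnajb6 on 96120_at, whose log2 differences were -0.24, -0.02, 0.03, 0.38, 0.05 and 0.21 at 7, 14, 23, 28, 56 and 112 days. That Dnajb6 result was lost without 1 array in 11 of 36 cases (F 3.65 to 4.45), without the filter, with quantile normalization, with the Gapdh ratio as a covariate or without the 9 albumin-rich arrays. The adjusted p was 0.0404 for Hspa1a, whose log2 differences were 0.40, 0.13, -0.50, 0.34, -0.75 and -0.55 at 7, 14, 23, 28, 56 and 112 days. That Hspa1a result was lost without 1 array in 19 of 36 cases (F 3.94 to 4.44) or with the Gapdh ratio as a covariate. The adjusted p was 0.0439 for Dnajb2, whose log2 differences were -0.02, 0.51, 0.01, -0.19, -0.83 and -0.21 at 7, 14, 23, 28, 56 and 112 days. That Dnajb2 result was lost without 1 array in 21 of 36 cases (F 3.29 to 4.5), without the filter, with the Gapdh ratio as a covariate or without the 9 albumin-rich arrays. With the replicate block the results of Dnajc3, Dnajb6 and Dnajb2 were lost as well. The cause of these differences between ages was not tested.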

How the results depend on the processing

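Of the 1610 values of the 69 named results under alternatives, 1276 stayed in direction and on their side of the threshold, 333 kept their direction and missed it, and 1 turned round: Hspa9 at 56 days, which was 0.0225 with quantile normalization. Calls of 15 named results held under each alternative. With array weights the number of member calls was 1 at 14 days, 11 at 23 days, 5 at 28 days and 16 in the F test. On the 6 arrays of an age alone it was 0 at 23 days, 1 at 28 days, 5 at 56 days and 1 at 112 days, with fewer arrays in each fit. Without the 9 albumin-rich arrays it was 7 at 56 days. In contrasts that use 112 days that setting rests on control replicate 1 alone at that age. With the replicate block the number of member calls was 0 at 23 days, 0 at 28 days and 6 over the mean of the ages. With that block it was 2 in the F test (Cct3 and Hspa1a) and 7 for the difference at 112 days less that at 7 days. Of 49 named results it ended the call of 20, which are not listed one by one. It was not run for 112 against 7 days within a genotype, since the numbers lie within an age. The numbers are not known to pair arrays: same-numbered arrays of an age had deviations correlated from -0.225 to 0.147, with 1 of 18 pairs over 0.1, and 4 of 36 arrays were most like the array of their own number. Leaving out 1 array gave 0 to 0 calls at 7 and 14 days, 0 to 2 at 23 days, 0 to 1 at 28 days, 4 to 11 at 56 days, 7 to 12 at 112 days, 7 to 14 over the mean, 3 to 12 in the F test, 34 to 41 for control age, 13 to 21 for mdx age, and 6 to 13 for the difference at 112 days less that at 7 days. Quantile normalization made 46.9% of all calls at 56 days higher ones, against 55.7% as deposited, and of the 11 member calls at 56 days under each, 7 were shared. Between quantile normalization and the deposited scale the calls at 56 days were 2 and 4 lower for Hsp70, 4 and 2 lower and 0 and 1 higher for J proteins, 2 and 0 higher for small heat shock proteins, and 1 and 2 higher for CCT. The cause of these changes was not tested. Probe sets near the filter lie close to background, and with 3 arrays a group small differences can be missed. The simulated recovery of 6% at a log2 change of 0.5 comes from a setting with 126 calls at 28 days. It need not hold at 56 and 112 days, where 1547 and 1131 probe sets were called.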
